A study of Homo sapiens with 27 samples.

Results

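The heat shock response genes described here were 10 of the 24566 gene rows of the count table, chosen by symbol: HSF1, HSPA1A, HSPA1B, HSPA8, HSPH1, HSP90AA1, DNAJB1, BAG3, HSPB1 and HSPD1. All 10 were counted in every library, with no fewer than 236 counts, and all 10 passed the filter on low counts in every fit. The libraries came from 2 established human cell lines, A431 from an epidermoid carcinoma and MDA-MB-231 from a breast adenocarcinoma, each bought from a cell bank and grown in the same medium with serum. Compound Kushen Injection (CKI), a herbal extract mixture, was given at 1 mg/ml, alone or together with a chemotherapy agent, and RNA was taken at 48 h. The labels state a dilution of 1 in 20 for the groups given CKI alone and none for the combinations. For MDA-MB-231 there were untreated cells, CKI, 5-fluorouracil (5-FU, 10 ug/ml) and CKI plus 5-FU. The A431 groups were untreated, a vehicle control, CKI, doxorubicin and CKI plus doxorubicin. Each of the 9 groups had 3 libraries, stated to be biological replicates. No single dose is tied to doxorubicin in the labels and the vehicle is not described there, so neither is given. Both agents and both lines differ between the combinations, so the effects of 5-FU and of doxorubicin cannot be compared apart from the line.

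The cytosolic heat shock response is the cell's transcriptional answer to unfolded protein. HSF1, the transcription factor at its centre, is held inactive by chaperones until misfolded proteins draw them away, and it then binds heat shock elements, inverted repeats of the bases GAA, in the promoters of chaperone genes. The chaperones it controls work as a chain: J proteins such as DNAJB1 bring clients to HSP70, exchange factors such as HSPH1 and BAG3 reset it, HSP90 matures clients handed on by HSP70, small heat shock proteins such as HSPB1 hold unfolded protein in solution, and HSPD1 folds proteins inside mitochondria.

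The 15 A431 libraries held 17757206 to 21756536 counts each, and the 12 of MDA-MB-231 held 19871048 to 22809339. The line labels held against their markers: KRT5, KRT14, CDH1 and DSG3 had medians of 2200, 929, 786 and 181 CPM (counts scaled to a fixed library size) in A431 and under 1 CPM in MDA-MB-231, while VIM and ZEB1 had medians of 941 and 69.1 CPM in MDA-MB-231 and 7.24 and 0.496 CPM in A431. The hormone receptor genes ESR1 and PGR were at or near 0 in MDA-MB-231. They were also low in A431, with medians of 1.44 and 0 CPM, so they do not tell the lines apart. Replicate 1 of untreated MDA-MB-231 stood apart from its group. Its counts differed from replicates 2 and 3 by a chi-square of 70.8 and 81.8 per degree of freedom, against 2.65 between those 2. Its deviation from the mean of the other 2 libraries correlated with the GC content of the transcripts across genes (Spearman's rho -0.676). Replicates 2 and 3, each set against a mean that holds replicate 1, gave 0.602 and 0.587. The vehicle replicates 1 and 3 of A431 deviated in opposite directions (rho -0.60 and 0.661). Genes are not independent replicates, so no p is given for these correlations, and the part of GC content in the results was not tested beyond the fits with offsets that are given beside them. No replicate pair agreed within counting noise.

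**Figure D1:**
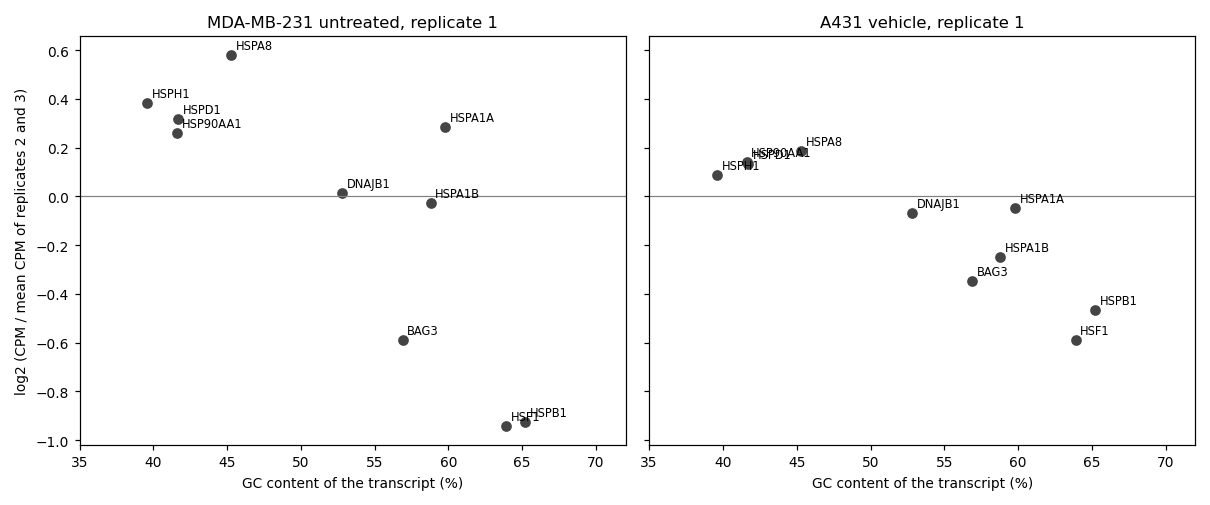
GC content of each member's transcript (x axis, %) against the log2 ratio of its CPM in replicate 1 to the mean of replicates 2 and 3 (y axis), for untreated MDA-MB-231 (left) and vehicle-treated A431 (right). HSF1 and HSPB1, of the highest GC content (63.9% and 65.2%), were lowest of the 10 in both libraries, at -0.943 and -0.926 in MDA-MB-231 and -0.59 and -0.466 in A431, while HSPA8, at a GC content of 45.3%, was highest, at 0.581 and 0.186.

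The members that carry the changes below are spread over the genome. In GRCh37, HSPA1A (chr6:31783320-31785723) and HSPA1B (chr6:31795515-31798031) lie side by side on the plus strand and each consist of 1 exon. HSPA8 (chr11:122928197-122933938) has 9 exons, HSPH1 (chr13:31709110-31736525) has 18, HSP90AA1 (chr14:102547079-102606036) has 11, DNAJB1 (chr19:14625581-14671203) has 3 and HSPD1 (chr2:198351308-198381461) has 12, all on the minus strand. HSPB1 (chr7:75931990-75933612) has 3 exons and BAG3 (chr10:121410892-121437331) has 4, both on the plus strand. Exon counts are those of the canonical transcript. HSPA1A and HSPA1B are near-identical: 69.6% of the 150-base windows of the HSPA1A transcript occur letter for letter in HSPA1B, and 66.1% of those of HSPA1B occur in HSPA1A, so the split of reads between them is uncertain. HSF1, HSP90AA1, DNAJB1 and HSPD1 overlap protein-coding genes on the opposite strand (DGAT1, WDR20, TECR, and HSPE1 with MOB4), whose reads cannot be told apart from theirs in these unstranded libraries where exons overlap.

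Promoter sequences of 300 bases, from 250 bases before the start site to 50 after its first base, were matched for 9 of the 10 members, all but HSF1 (RefSeq, GRCh38.p14). A heat shock element of 3 units, GAANNTTCNNGAA or TTCNNGAANNTTC, was searched together with the shorter form of 2 units, GAANNTTC or TTCNNGAA. Every 3-unit match holds 2-unit matches, and each letter pattern was read on both strands, since the reverse complement of each is in its set. Of all 35116 promoters, 0.49% held a 3-unit element and 13.5% a 2-unit element. Elements of 3 units stood in the promoters of HSPA8, HSP90AA1 and HSPD1, at 230 and 55, 88, and 245 and 240 bases before the start site (the last of these overlap). DNAJB1, HSPA1A, HSPA1B and HSPB1 held only the 2-unit form, and no match was found in these windows for HSPH1 and BAG3. The windows of the 7 members with a match are printed because they hold the letters of the elements that HSF1 reads, 5′ to 3′ on the strand of the gene, with every match in capitals. For HSP90AA1, DNAJB1 and HSPD1, which have more than 1 listed start site, the window shown is the one with the most matches. A match is a string of letters and not evidence of binding. The windows of HSPA1A (chr6:31815293-31815592) and HSPA1B (chr6:31827488-31827787) were identical at 277 positions of their alignment, with 22 mismatches and 2 gapped positions, and hold the same element.
HSPA1A, plus strand: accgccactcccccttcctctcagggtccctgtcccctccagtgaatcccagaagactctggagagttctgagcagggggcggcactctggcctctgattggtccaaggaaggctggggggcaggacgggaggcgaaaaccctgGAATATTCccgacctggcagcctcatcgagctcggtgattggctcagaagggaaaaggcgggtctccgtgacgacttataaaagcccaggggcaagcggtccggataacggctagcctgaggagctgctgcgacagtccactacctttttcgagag
HSPA1B, plus strand: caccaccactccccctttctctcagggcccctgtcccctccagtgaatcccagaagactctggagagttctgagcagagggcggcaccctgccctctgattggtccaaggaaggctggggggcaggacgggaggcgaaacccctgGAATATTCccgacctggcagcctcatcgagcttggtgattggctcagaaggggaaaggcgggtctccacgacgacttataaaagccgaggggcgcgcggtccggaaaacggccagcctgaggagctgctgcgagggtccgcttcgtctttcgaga
HSPA8, chr11:123062087-123062386, minus strand: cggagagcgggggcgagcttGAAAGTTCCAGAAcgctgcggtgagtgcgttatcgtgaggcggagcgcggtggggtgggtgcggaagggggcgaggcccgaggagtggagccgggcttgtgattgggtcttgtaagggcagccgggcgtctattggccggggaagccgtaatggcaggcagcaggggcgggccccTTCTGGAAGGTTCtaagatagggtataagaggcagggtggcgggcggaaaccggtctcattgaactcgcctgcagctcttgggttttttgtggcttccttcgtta
HSP90AA1, chr14:102086995-102087294, minus strand: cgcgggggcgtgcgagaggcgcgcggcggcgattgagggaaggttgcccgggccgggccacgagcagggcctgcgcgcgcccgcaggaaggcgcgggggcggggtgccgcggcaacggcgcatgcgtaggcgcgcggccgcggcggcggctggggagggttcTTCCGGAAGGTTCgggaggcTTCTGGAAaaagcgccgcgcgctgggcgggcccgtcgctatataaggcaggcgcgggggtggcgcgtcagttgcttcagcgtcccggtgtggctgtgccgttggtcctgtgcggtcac
DNAJB1, chr19:14518348-14518647, minus strand: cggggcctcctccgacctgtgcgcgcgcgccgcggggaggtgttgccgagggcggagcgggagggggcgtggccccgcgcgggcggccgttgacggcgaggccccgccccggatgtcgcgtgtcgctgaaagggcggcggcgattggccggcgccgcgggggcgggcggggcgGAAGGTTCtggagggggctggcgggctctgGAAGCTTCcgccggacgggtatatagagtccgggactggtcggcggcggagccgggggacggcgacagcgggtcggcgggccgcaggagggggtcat
HSPB1, chr7:76302423-76302722, plus strand: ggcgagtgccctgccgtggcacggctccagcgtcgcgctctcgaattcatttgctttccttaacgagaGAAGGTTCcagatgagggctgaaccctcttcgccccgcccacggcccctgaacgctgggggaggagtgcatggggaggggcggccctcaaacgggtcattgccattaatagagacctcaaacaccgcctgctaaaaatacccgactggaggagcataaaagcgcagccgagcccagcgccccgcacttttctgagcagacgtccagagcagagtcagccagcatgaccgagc
HSPD1, chr2:197499791-197500090, minus strand: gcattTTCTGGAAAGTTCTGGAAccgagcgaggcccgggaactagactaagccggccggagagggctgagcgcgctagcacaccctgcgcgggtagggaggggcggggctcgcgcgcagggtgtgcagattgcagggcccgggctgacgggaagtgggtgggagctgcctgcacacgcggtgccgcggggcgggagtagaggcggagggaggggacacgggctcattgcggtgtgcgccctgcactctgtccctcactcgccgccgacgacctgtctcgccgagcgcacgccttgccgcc

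In bulk cultures, fewer cells of a kind and less RNA per cell cannot be told apart. Levels are given as CPM scaled by the trimmed mean of M values (TMM) over all 27 libraries, and fold changes come from edgeR's quasi-likelihood test within a line, with Benjamini-Hochberg adjusted p-values over all genes tested. These scalings put the ratio of printed CPM up to 0.093 on the log2 scale from the fitted fold change, enough to turn the sign for HSF1 under CKI in A431 and for HSPB1 between CKI plus doxorubicin and CKI, neither of which passed the test. A gene was called when its adjusted p was under 0.05 and its fold change was over 1 on the log2 scale, the limits of the study. Per kilobase of transcript, untreated A431 held most HSPB1 (1684 ± 43.8 CPM per kb, SD, n = 3), then HSP90AA1 (754.9 ± 17.1), HSPD1 (456.5 ± 7.13) and HSPA8 (382.4 ± 10.8). Untreated MDA-MB-231 held most HSPA8 (594.9 ± 147) and HSP90AA1 (462 ± 48.9), followed by HSPB1 (362.9 ± 118) and HSPD1 (209.2 ± 27.6). The order of HSP90AA1 and HSPB1 there rests on replicate 1, the library that stood apart (518.5 and 226.7 CPM per kb). In replicates 2 and 3 HSP90AA1 was at 433.2 and 434.5 CPM per kb and HSPB1 at 437.1 and 424.8. HSPA1A was lowest of the 10 in untreated MDA-MB-231, at 8.835 ± 1.06 CPM per kb. Together the 10 genes took 0.637% ± 0.00859 of all counts in untreated A431 and 0.432% ± 0.0384 in untreated MDA-MB-231. In A431 this share was 0.42% ± 0.00241 with CKI, 0.516% ± 0.00256 with doxorubicin and 0.642% ± 0.00903 with the combination.

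**Figure D2:**
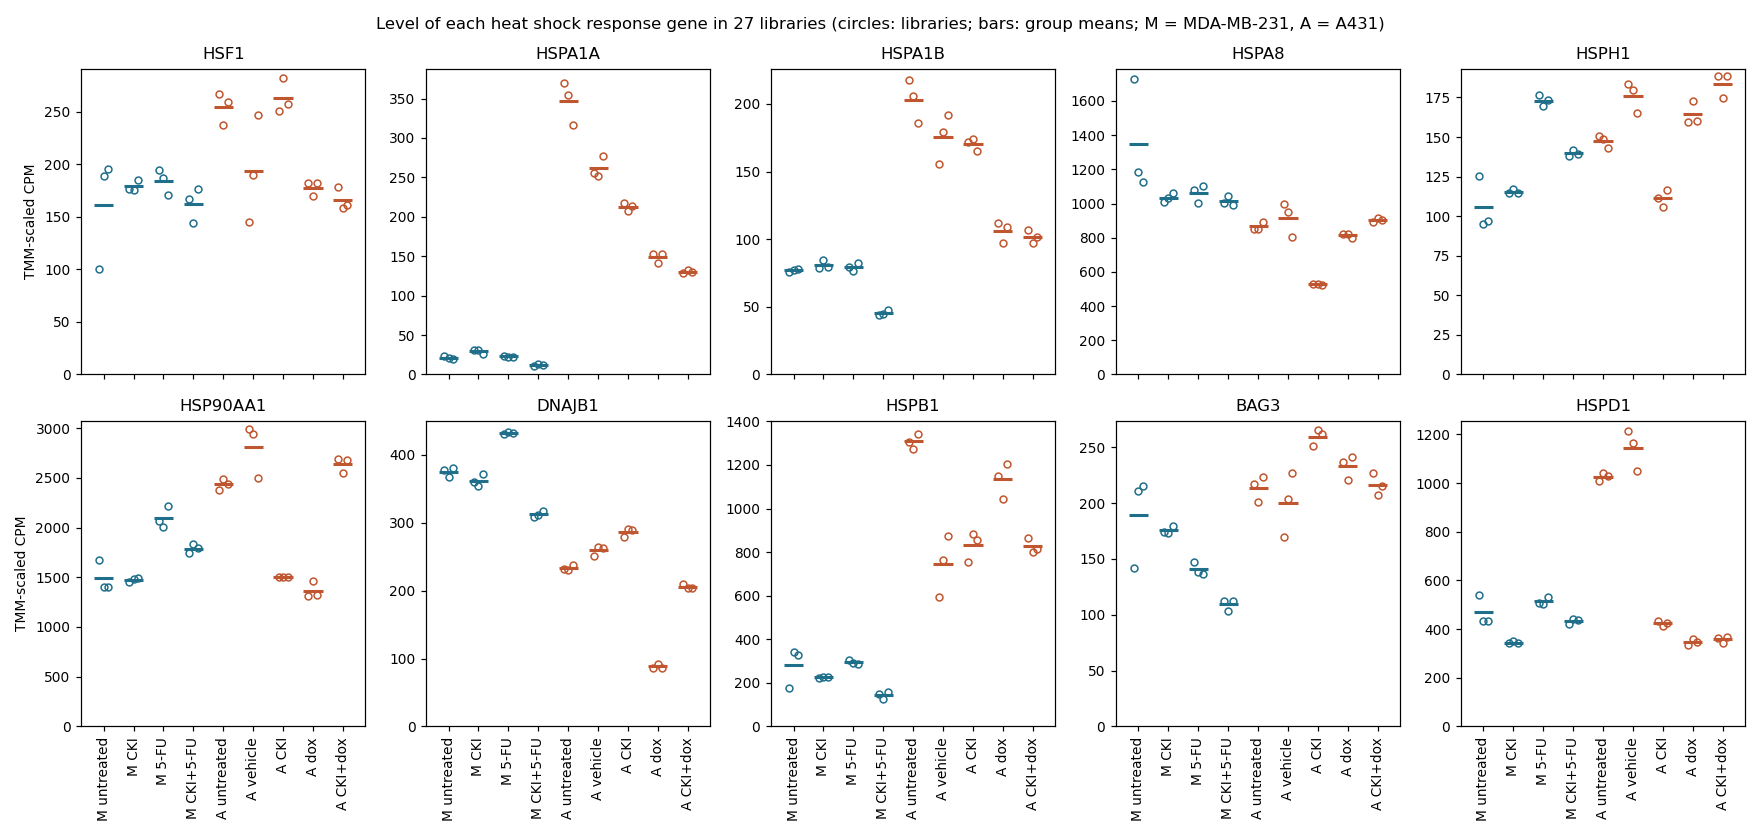
TMM-scaled CPM (y axis, linear from 0) of the 10 genes in each of the 27 libraries (circles) with group means (bars), for the 4 MDA-MB-231 groups (M) and the 5 A431 groups (A). HSPA1A and HSPB1 were higher in every A431 library than in any MDA-MB-231 library, HSPD1 fell from 1008-1040 CPM in untreated A431 to 335.7-358.5 with doxorubicin, and HSP90AA1 was low with either agent in A431 (1500-1501 and 1311-1463 CPM) and high with both (2547-2691 CPM).

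The lines differed in these genes before any treatment. Untreated A431 exceeded untreated MDA-MB-231 in 7 of the 10 genes by adjusted p and lay below it for HSPA8 and DNAJB1, against a background of 41.9% of 14848 genes higher and 36.7% lower. By both limits 4 genes were called, all higher in A431 (HSPA1A, HSPB1, HSPA1B and HSPD1), where 42.9% of all genes were called in either direction. The median difference was 0.735 on the log2 scale over the 10 genes and 0.0937 over all genes. HSPA1A differed most, with 370.1, 354.0 and 316.4 CPM in A431 and 24.07, 20.37 and 19.18 CPM in MDA-MB-231, a log2 difference of 4.08 ± 0.112 (SE, adjusted p = 1.2e-12). HSPB1 was at 1307, 1275 and 1343 CPM in A431 and 176.2, 339.6 and 330.1 CPM in MDA-MB-231 (2.27 ± 0.181, adjusted p = 6.5e-08). Neither pair of groups overlapped. The HSPB1 difference was 1.63 with offsets for GC content and length and 1.47 against vehicle-treated A431, both still called. HSP90AA1, HSF1 and HSPH1 were 0.76, 0.71 and 0.53 higher in A431, and HSPA8 and DNAJB1 lay at -0.59 and -0.63. BAG3 stood 0.23 higher and did not pass (adjusted p = 0.091). Set against vehicle-treated A431, the line difference of HSF1 no longer passed, at 0.33 (adjusted p = 0.18). With offsets for GC content and length it was 0.22 and still passed.

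In MDA-MB-231, 3 of the 10 genes changed with CKI alone and 5 with 5-FU alone by adjusted p. Without replicate 1 of the untreated group, the library that stood apart, 6 passed with CKI, with HSPH1 (0.26), HSPB1 (-0.58) and BAG3 (-0.29) added, and 8 with 5-FU, with HSPA1A (0.22), HSPB1 (-0.18) and HSPD1 (0.25) added. With all libraries, CKI raised HSPA1A and lowered HSPA8 and HSPD1 by adjusted p (1 of 10 higher against 17.4% of 13999 genes, 2 lower against 18.8%), and none was called by both limits (5.96% of all genes). By unadjusted p under 0.05 the count was also 3. 5-FU raised HSPH1, HSP90AA1 and DNAJB1 and lowered HSPA8 and BAG3 (3 higher against 28.6%, 2 lower against 28.5%), again with none called (13.3% of all genes), and 5 passed by unadjusted p. In both comparisons DESeq2 also called none by both limits. The medians were -0.0422 with CKI and 0.125 with 5-FU over the members, against -0.0075 and -0.00368 over all genes. With library size alone as the scaling, 61.1% rather than 47.9% of the genes passing by adjusted p were higher with CKI, and 63.3% rather than 50% with 5-FU. Of the members, 5 were then higher and none lower with 5-FU. With the compared groups fitted alone 3 were higher and none lower, HSPA8 and BAG3 having lost the threshold in both fits. With offsets for GC content and length 5 members passed with CKI, HSPH1 (0.16) and HSPB1 (-0.48) being added. With 5-FU 7 passed, HSF1 (0.33) and HSPB1 being added. HSPB1 was then at 0.27 (adjusted p = 0.0089), opposite in sign to the fit without untreated replicate 1.

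CKI added to 5-FU in MDA-MB-231 lowered most of the 10. Against 5-FU alone 8 genes fell and none rose by adjusted p (24.5% of all genes lower, 25.9% higher), all but HSF1 and HSPA8, and HSPB1 was called (9.77% of all genes). BAG3 lost the threshold when any of the 6 libraries was left out, and without replicate 3 of 5-FU or replicate 1 of the combination HSP90AA1 and HSPD1 lost it too, which left 5. The median was -0.335 over the members and 0.00551 over all genes. Against CKI alone 5 genes fell and 3 rose (20% of all genes lower, 22.1% higher), and HSPA1A was called (3.81%), with medians of -0.167 and 0.00632. This comparison followed the GC content of the transcripts across genes (rho -0.517), and with offsets HSPA1A was at -1.01, HSPB1 at -0.29 and HSF1 at 0.23, while HSPH1, 1 of the 3 that rose, went from 0.29 to 0.0746 (adjusted p = 0.27). The others that rose, HSP90AA1 and HSPD1, went from 0.29 to 0.10 and from 0.34 to 0.14, and still passed. HSPH1 also lost the threshold in 5 of 6 fits that left out 1 library. Library size alone gave 64.1% rather than 52.5% higher among genes passing by adjusted p. Both comparisons share the combination libraries. The interaction, the change with CKI in the presence of 5-FU minus that in its absence, was negative for 4 genes (HSPA1A, HSPA1B, HSPH1 and DNAJB1) and positive for none by adjusted p (14.3% of all genes negative, 17.1% positive), and HSPA1A was called (6.84%). Leaving out 1 library gave 3 to 6 negative members, 6 without untreated replicate 1, and the offsets also gave 6. HSPH1 lost the threshold in 3 of 12 such fits. HSPB1, at -0.70 (adjusted p = 0.061), passed with the offsets and without any 1 of the untreated libraries.

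In A431 either agent alone lowered most of the genes. With CKI 7 genes fell and DNAJB1 and BAG3 rose (33.7% of 15881 genes lower, 33.3% higher), and HSPD1 was called (22.4%), with a median of -0.622 over the members and 0.00283 over all genes. Doxorubicin lowered 7 and raised HSPH1 (39.9% lower, 40.7% higher), and called HSPD1, DNAJB1 and HSPA1A, all lower (37.3%), with medians of -0.704 and 0.0172. Over the alternatives, 2 to 4 members were called by both limits with doxorubicin, and HSPA1A reached -0.85, under the limit on fold change. Scaling by library size alone moved the fold change of the median gene by 0.343 with doxorubicin and by 0.109 with CKI. It made 67% rather than 50.5% of the genes passing by adjusted p higher with doxorubicin, and left 5 members lower and 3 higher there. Both comparisons share the untreated libraries. Against the vehicle, 5 members were lower and 2 higher with CKI by adjusted p. HSPD1 (-1.53) and HSP90AA1 (-1.01) were then called and HSF1 was higher, at 0.34, while DNAJB1 (0.0415), HSPA1B (-0.14) and HSPB1 (0.0563) no longer passed.

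The vehicle control itself differed from untreated A431. Here 4 of the 10 genes were higher and 4 lower by adjusted p (23.2% and 19.3% of all genes), none by both limits (2.54%), 8 by unadjusted p and none by both limits with DESeq2. These differences followed the GC content of the transcripts across genes (rho -0.58), and with offsets for GC content and length 1 member was higher and 1 lower. With the compared groups fitted alone 1 was higher and 2 lower. The labels do not say which groups received the vehicle, so untreated A431 was the control for each agent and the vehicle was tried in its place.

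Given together in A431, the agents were compared with each agent alone. Against doxorubicin alone, the combination raised 4 genes (HSPA8, HSPH1, HSP90AA1 and DNAJB1) and lowered HSPA1A and HSPB1 (33.8% of all genes higher, 29.8% lower), and DNAJB1 was called (14.9%), joined by HSP90AA1 (1.03) without replicate 2 of doxorubicin, with a median of 0.0118 over the members and 0.0305 over all genes. With offsets for GC content and length HSPA1A turned from -0.17 to 0.0421 and HSPH1 went from 0.18 to 0.0235 (adjusted p = 0.66), and HSPA1A lost the threshold in 4 of 6 fits that left out 1 library. Against CKI alone it raised HSPA8, HSPH1 and HSP90AA1 and lowered 6 (38.5% higher, 34.8% lower), and none was called by both limits (25.7%), with 9 passing by unadjusted p and none called by DESeq2. Library size alone moved the median gene by 0.206 here, made 66.3% rather than 52.5% of passing genes higher, and called HSPA8 (1.07), HSPH1 (1.01) and HSP90AA1 (1.10). It left 4 members higher and 4 lower, with BAG3 and HSPD1 turned to 0.0298 and 0.0485. With DESeq2, with RLE factors and with the filter of at least 10 counts, 3 were higher and 4 lower, BAG3 and HSPD1 having lost the threshold. The interaction of CKI and doxorubicin was positive for 8 of the 10 genes and negative for BAG3 by adjusted p (31.4% of all genes positive, 26% negative), and HSP90AA1, HSPD1 and DNAJB1 were called (19.5%). When 1 library was left out, 7 to 8 members passed rather than 9. BAG3 and HSPB1 each lost the threshold in 8 of 12 such fits. HSPB1 also lost it with DESeq2, RLE factors, library size alone, the filter of at least 10 counts and the offsets. With the vehicle in place of untreated A431, 6 were positive and 3 negative. The median was 0.655 over the members and 0.037 over all genes. Library size alone moved the median gene by -0.138, turned the split of passing genes from 54.6% to 44% positive, and left 6 members positive. It uses the same libraries as the comparisons of single agents and is not independent of them.

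**Figure D3:**
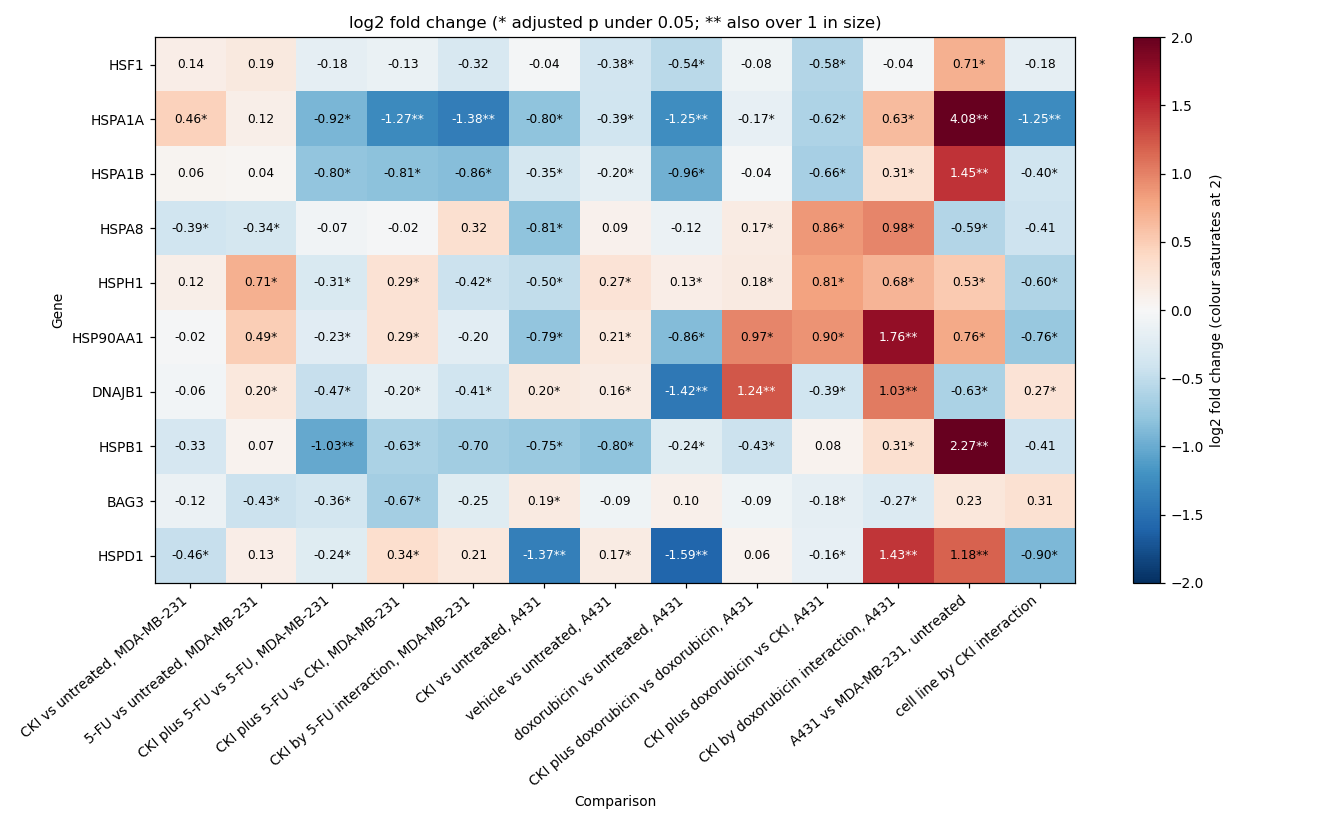
log2 fold change (colour and number) of each of the 10 genes (y axis) in each of the 13 comparisons (x axis), where an asterisk marks an adjusted p under 0.05 in edgeR's quasi-likelihood test and a double asterisk also a change over 1. The columns for CKI and for doxorubicin in A431 are mostly negative, the column for their interaction is mostly positive, with HSP90AA1 highest at 1.76, and HSPA1A has the lowest value in 3 other columns (-1.27, -1.38 and -1.25).

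HSF1, the regulator of the response, had the smallest ratio of highest to lowest group mean among the 10, 1.63, and in the order of its 9 group means all 8 pairs of neighbours overlapped. In A431 it fell with doxorubicin, from 267.4, 237.7 and 259.2 CPM to 182.0, 169.7 and 182.2 CPM, with no overlap (log2 fold change -0.54 ± 0.111, adjusted p = 0.00012). The difference no longer passed against the vehicle control, at -0.16, or with library size alone, at -0.20. With CKI plus doxorubicin it was at 178.6, 158.5 and 161.4 CPM, -0.58 against CKI alone. In MDA-MB-231 none of the 4 pairwise comparisons or the interaction passed for HSF1, whose untreated libraries lay at 100, 189.2 and 195.4 CPM. With offsets for GC content and length it passed with 5-FU, at 0.33 (adjusted p = 0.00033), and for the combination against CKI, at 0.23 (adjusted p = 0.0082). The counts measure the transcript, and the activity of the protein was not measured.

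HSPA1A and HSPA1B encode the inducible HSP70, which binds exposed hydrophobic stretches of unfolded protein. In A431 HSPA1A stepped down through the groups, with no overlap between neighbours: 316.4 to 370.1 CPM untreated, 252.3 to 277.3 with vehicle, 206.9 to 217.4 with CKI, 141.1 to 152.7 with doxorubicin and 129.2 to 132.3 with the combination. The log2 fold change against untreated was -0.80 ± 0.0588 with CKI (adjusted p = 3.1e-11) and -1.25 ± 0.0596 with doxorubicin (adjusted p = 9.6e-15). Over 10 alternatives other than leaving out a library, the change with doxorubicin ranged from -1.30 to -0.85, so HSPA1A was not always called. The vehicle group itself lay at -0.39 against untreated, and against the vehicle the change with CKI was -0.40. With offsets for GC content and length the vehicle difference no longer passed, at -0.0851 (adjusted p = 0.24). The change with CKI against untreated was then -0.57. HSPA1B fell by 0.35 with CKI and by 0.96 with doxorubicin, and its fall with CKI no longer passed against the vehicle, at -0.14.

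In MDA-MB-231 the inducible HSP70 genes were low in the combination. HSPA1A was at 24.07, 20.37 and 19.18 CPM untreated, at 31.47, 30.87 and 25.88 with CKI, at 23.83, 22.54 and 22.64 with 5-FU and at 11.10, 13.03 and 12.27 with both. The combination lay below all other groups with no overlap, and the CKI libraries lay above them all. HSPA1A rose with CKI by 0.46 ± 0.104 (adjusted p = 0.0043), lay at -0.92 ± 0.108 in the combination against 5-FU (adjusted p = 2.6e-05) and at -1.27 ± 0.107 against CKI (adjusted p = 7.8e-06), and its interaction was -1.38 ± 0.149 (adjusted p = 5.7e-05). HSPA1B showed the same low group, 44.25, 45.01 and 47.89 CPM in the combination against 76.07 to 84.41 CPM over the other 9 libraries, at -0.80 against 5-FU and -0.81 against CKI. Its interaction was -0.86 ± 0.0825 (adjusted p = 2.6e-05).

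Since reads of the pair can be exchanged, their counts were also summed. HSPA1A held 63.1% ± 0.143 (SD, n = 3) of the summed counts in untreated A431, 55.5% ± 1.11 with CKI and 58.4% ± 0.753 with doxorubicin, but 21.6% ± 2.22 in untreated MDA-MB-231. The sum was 550.1 ± 43.4 CPM in untreated A431 and 98.26 ± 1.62 in untreated MDA-MB-231. The line difference of the sum was 2.54 ± 0.0728 (adjusted p = 1.8e-12), smaller than that of HSPA1A and larger than that of HSPA1B. The sum kept its call with doxorubicin (-1.14) and lost the limit on fold change in MDA-MB-231 for the combination against CKI, at -0.92 ± 0.0589 (adjusted p = 2e-06), and for the interaction, at -0.98 ± 0.0826 (adjusted p = 9.8e-06). In MDA-MB-231 with CKI alone the sum did not pass, at 0.16 ± 0.0581 (adjusted p = 0.052).

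**Figure D4:**
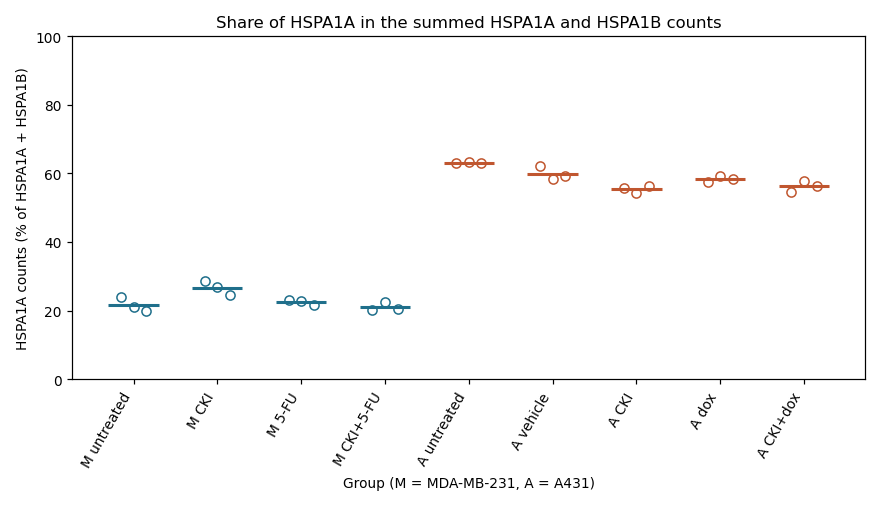
HSPA1A counts as a percentage of HSPA1A plus HSPA1B counts (y axis) in each library (circles) with group means (bars), by group. The 15 A431 libraries lie above the 12 MDA-MB-231 libraries, with group means of 55.5% to 63.1% and 21% to 26.6%.

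HSPA8, the constitutive HSP70 of the cytosol, fell in A431 with CKI. It was at 852.3, 851.1 and 894.2 CPM untreated and at 528.4, 529.4 and 522.9 CPM with CKI, the lowest group of all 9 (-0.81 ± 0.0621, adjusted p = 6.3e-11). With doxorubicin it lay at 820.7, 824.0 and 798.3 CPM (-0.12 ± 0.0616, adjusted p = 0.087), a value that turned to 0.23 with library size alone and passed at -0.30 with offsets for GC content and length and at -0.21 against the vehicle. With both agents it was at 891.2, 916.6 and 905.8 CPM, 0.86 ± 0.0621 above CKI alone (adjusted p = 2.8e-11), and its interaction was 0.98 ± 0.0873 (adjusted p = 2.4e-09). In MDA-MB-231 HSPA8 was lower with CKI (-0.39) and with 5-FU (-0.34), but its untreated libraries were at 1729, 1186 and 1126 CPM, and replicate 1 is the library that stood apart. Without that library the changes were -0.17 with CKI and -0.12 with 5-FU, and both lost the threshold when any 1 library of the treated group was left out.

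HSPH1, the HSP110 that acts as an exchange factor for HSP70, rose with 5-FU in MDA-MB-231, from 125.1, 95.02 and 96.97 CPM to 176.4, 169.5 and 173.4 CPM (0.71 ± 0.0887, adjusted p = 2.8e-05). In the combination it was at 138.3, 141.9 and 139.2 CPM, between 5-FU and untreated with no overlap. In A431 it fell with CKI from 150.4, 149.0 and 142.8 CPM to 111.6, 105.7 and 116.7 CPM (-0.50 ± 0.0598, adjusted p = 1.2e-07). It was 0.81 ± 0.0594 higher with both agents than with CKI alone (adjusted p = 4.2e-11), at 188.6, 174.6 and 188.3 CPM. The rise of HSPH1 with doxorubicin alone, 0.13 (adjusted p = 0.049), lost the threshold when any of the 6 libraries compared was left out and turned to -0.14 against the vehicle.

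HSP90AA1, the stress-inducible cytosolic HSP90, had the highest interaction of CKI and doxorubicin among the 10. Its CPM in A431 were 2380, 2490 and 2441 untreated, 1501, 1501 and 1500 with CKI, 1311, 1463 and 1320 with doxorubicin, and 2691, 2547 and 2677 with both. The groups given 1 agent lay far below untreated and the group given both lay above it, with no overlap. The vehicle libraries were at 2992, 2938 and 2494 CPM, a range that held all libraries given both agents. HSP90AA1 in the combination therefore did not exceed the vehicle control. The combination was not tested against untreated or vehicle-treated A431. The log2 fold changes were -0.79 ± 0.0616 with CKI (adjusted p = 8.2e-11), -0.86 ± 0.0617 with doxorubicin (adjusted p = 1.3e-11) and 0.97 ± 0.0618 for the combination against doxorubicin (adjusted p = 5.4e-12). The interaction of 1.76 ± 0.0873 (adjusted p = 2.1e-13) lay between 1.62 and 1.98 over all alternatives run. In MDA-MB-231 HSP90AA1 rose by 0.49 ± 0.0716 with 5-FU (adjusted p = 9.8e-05), from 1674, 1398 and 1402 CPM to 2068, 2009 and 2214 CPM, and CKI alone gave -0.02.

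DNAJB1, the J protein that stimulates HSP70, fell with doxorubicin in A431 and was far higher when CKI was given as well. It was at 231.7, 230.3 and 237.9 CPM untreated, at 86.75, 92.32 and 86.67 with doxorubicin, at 279.0, 290.2 and 289.3 with CKI and at 210.4, 203.6 and 203.1 with both. In the order of its 9 groups, 1 of the 8 pairs of neighbours overlapped. The log2 fold change was -1.42 ± 0.0519 with doxorubicin (adjusted p = 7.7e-17), 1.24 ± 0.0517 for the combination against doxorubicin (adjusted p = 3.8e-15), and 1.03 ± 0.0717 for the interaction (adjusted p = 4.7e-11). The last lay at 0.89 with library size alone, at 0.96 with the filter of at least 10 counts in every library and just under 1 with DESeq2, under the limit on fold change. In MDA-MB-231 DNAJB1 was highest with 5-FU, at 430.2, 433.0 and 432.3 CPM, and lowest with both agents, at 308.7, 311.3 and 316.7 CPM (-0.47 ± 0.0463 against 5-FU, adjusted p = 7.2e-06).

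BAG3, the exchange factor that routes HSP70 clients to autophagy, varied little in A431, where its group means differed by at most 1.3 times. It rose with CKI by 0.19 ± 0.0757 (adjusted p = 0.033), which lost the threshold when any 1 of 4 of the 6 libraries was left out, and lay at 0.10 with doxorubicin (adjusted p = 0.24). In MDA-MB-231 it stepped down from 141.5, 210.8 and 215.3 CPM untreated to 147.2, 138.1 and 136.8 CPM with 5-FU (-0.43, adjusted p = 0.011) and 112.0, 103.3 and 112.8 CPM with both agents. The untreated and 5-FU groups overlapped through replicate 1 of the untreated group, and without it the change was -0.60. Against CKI alone the combination was at -0.67 ± 0.124 (adjusted p = 0.0013).

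HSPB1 encodes the small heat shock protein HSP27. In MDA-MB-231 the combination held 149.8, 127.2 and 157.0 CPM, under the 305.8, 292.4 and 286.9 CPM of 5-FU alone (-1.03 ± 0.187, adjusted p = 0.00071), and the groups did not overlap. The change lay at -0.94 without replicate 2 of the combination, under the limit on fold change. With CKI alone it held 223.8, 227.0 and 226.6 CPM, at -0.33 against untreated (adjusted p = 0.19), and without replicate 1 of the untreated group this was -0.58 and passed. In A431 HSPB1 fell with CKI from 1307, 1275 and 1343 CPM to 753.6, 884.0 and 857.5 CPM (-0.75 ± 0.091, adjusted p = 1.4e-07). The vehicle libraries were as low, at 594.0, 765.6 and 875.9 CPM, and against the vehicle the change with CKI was 0.06 (adjusted p = 0.61). With offsets for GC content and length the change with CKI against untreated shrank to -0.21 (adjusted p = 0.00095). That of the vehicle went from -0.80 to -0.22 (adjusted p = 0.004). With doxorubicin the change of -0.24 turned to 0.57 against the vehicle, to 0.11 with library size alone and to 0.13 with offsets for GC content and length.

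HSPD1, the mitochondrial HSP60, had the largest falls of the 10 with CKI and with doxorubicin in A431. It was at 1008, 1040 and 1027 CPM untreated, at 431.3, 413.9 and 424.7 with CKI, at 335.7, 358.5 and 348.4 with doxorubicin and at 362.5, 342.3 and 369.0 with both. All treated libraries other than vehicle lay far below untreated, and the combination overlapped doxorubicin. The log2 fold changes were -1.37 ± 0.0569 with CKI (adjusted p = 1.3e-15) and -1.59 ± 0.0573 with doxorubicin (adjusted p = 6.5e-17), and the combination differed from doxorubicin by 0.06 (adjusted p = 0.34). The interaction was 1.43 ± 0.0798 (adjusted p = 1.4e-12). In MDA-MB-231 HSPD1 was lower with CKI, 343.1, 349.2 and 342.2 CPM against 541.2, 435.0 and 432.6 CPM untreated (-0.46 ± 0.0789, adjusted p = 0.00084), and 0.34 higher with both agents than with CKI. With offsets for GC content and length this last difference was 0.14.

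The change with CKI differed between the lines for some of the genes. The interaction of line and CKI, the A431 change minus the MDA-MB-231 change, was negative for HSPA1A, HSPA1B, HSPH1, HSP90AA1 and HSPD1 and positive for DNAJB1 by adjusted p (23.9% of 14848 genes negative, 23.1% positive). HSPA1A was called (18.5% of all genes), at -1.25 ± 0.144 (adjusted p = 1.2e-05), and HSPD1 stood at -0.90 ± 0.122 (adjusted p = 4.9e-05). The sum of HSPA1A and HSPA1B stood at -0.76, and without replicate 1 of untreated MDA-MB-231 HSPD1 was called as well, at -1.03. With offsets for GC content and length none was called, HSPA1A stood at -0.87, HSPA1B went from -0.40 to -0.0559 (adjusted p = 0.70), and HSF1 and HSPB1 turned to 0.31 and 0.37. With the vehicle in place of untreated A431, HSPA1B and DNAJB1 lost the threshold, DNAJB1 at 0.11, and 4 members were negative and none positive. Over the alternatives other than leaving out a library, HSPA1A ranged from -1.25 to -0.86 and HSPD1 from -1.07 to -0.81. Both ranges cross the limit on fold change. The median was -0.41 over the members and -0.0129 over all genes.

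The 10 genes were set beside a wider list of 53 other chaperone genes, of which 48 were tested in A431 and 47 in MDA-MB-231. In A431 33 of them fell and 8 rose with CKI by adjusted p (33.7% of all genes lower, 33.3% higher), with a median of -0.60 against 0.00283 over all genes. The 9 chaperonin genes all fell, and so did 10 of the 11 genes of HSP90 and its cochaperones. The 2 smallest adjusted p among those that fell belonged to HSPE1, the partner of HSPD1 (-1.80 ± 0.0675, adjusted p = 2.3e-16), and HSP90AB1, the constitutive HSP90 (-1.06 ± 0.0491, adjusted p = 8.8e-15). Those that rose were led by HSPB8, a small heat shock protein that works with BAG3 (1.43 ± 0.0606, adjusted p = 1.8e-15), and HSPA13 (0.74 ± 0.0758, adjusted p = 8.5e-09). With doxorubicin 27 fell and 14 rose (39.9% of all genes lower, 40.7% higher), with a median of -0.357 against 0.0172 over all genes. They were led by HSP90AB1 (-1.30) and STUB1, a ubiquitin ligase of chaperone clients (-2.65), and by HSPB8 (2.83) and HSPA2 (1.56). HSP90AB1 held 9480 to 9720 CPM untreated, 4870 to 4930 with CKI, 3910 to 4040 with doxorubicin and 4170 to 4570 with both. The combination left it low, at 0.17 against doxorubicin. Its interaction was 1.23, the smallest adjusted p among the 35 of 48 genes with a positive interaction by adjusted p, while 8 were negative (31.4% of all genes positive, 26% negative). All 9 chaperonins and all 11 genes of HSP90 and its cochaperones were positive.

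In MDA-MB-231 the wider list had, with CKI, 7 higher and 10 lower (17.4% and 18.8% of all genes) with a median of -0.104, led by HSPA4L (0.61) and HSPB8 (0.66) among those that rose and HSP90AB1 (-0.36) and BAG1 (-0.31) among those that fell. With 5-FU 23 rose and 6 fell (28.6% and 28.5% of all genes), with a median of 0.203, led by HSPB8 (1.74) and DNAJB4 (1.32), and by DNAJB6 (-0.53) and DNAJB5 (-0.37). The combination lowered 14 and raised 5 against 5-FU (24.5% of all genes lower, 25.9% higher), led by HSPB8 (-1.30) and BAG1 (-0.62), and by DNAJB6 (0.58) and HSPA4 (0.30). Against CKI it raised 21 and lowered 5 (22.1% of all genes higher, 20% lower). Between the untreated lines 28 were higher and 12 lower in A431 (41.9% and 36.7% of all genes), and the interaction of line and CKI was negative for 27 and positive for 6 (23.9% and 23.1% of all genes).

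**Figure D5:**
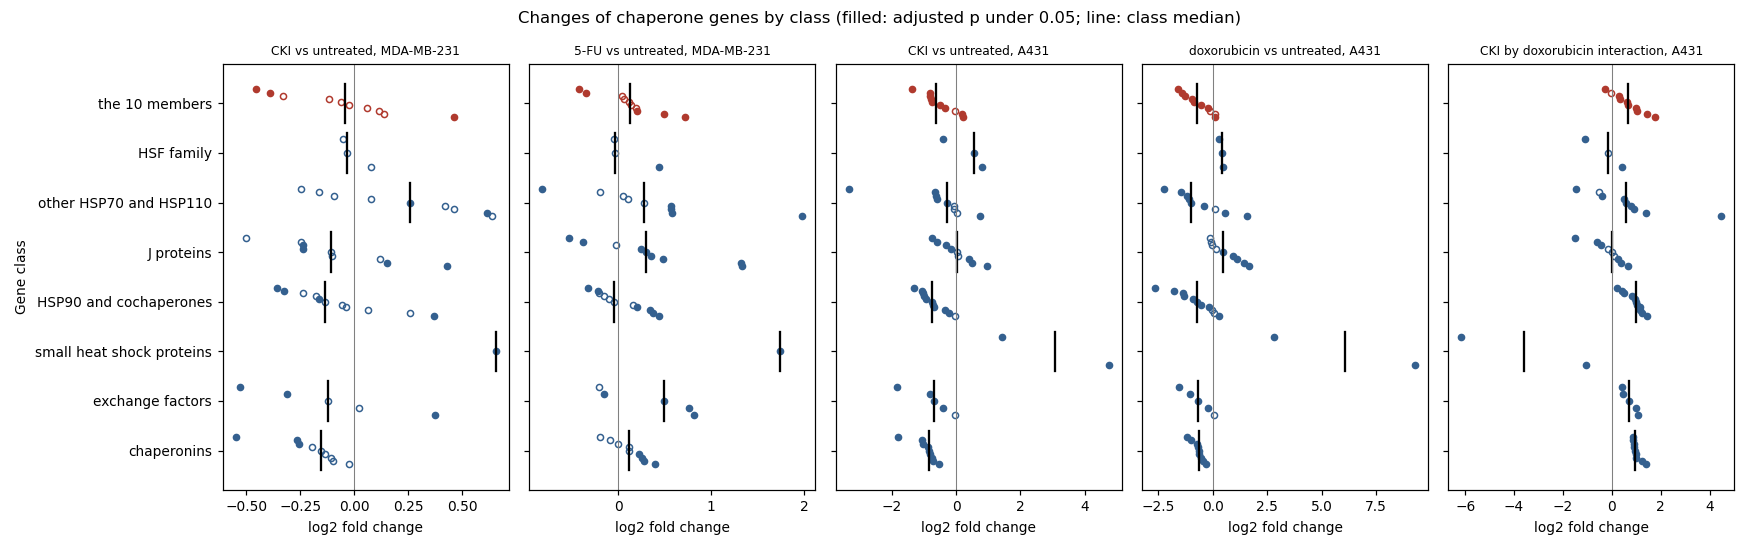
log2 fold change (x axis, each panel on its own scale) of the 10 members (red) and of 53 other chaperone genes by class (blue, genes tested only) in 5 comparisons; filled points have an adjusted p under 0.05 in edgeR's quasi-likelihood test and black lines are class medians. The chaperonins all lie left of 0 with CKI and with doxorubicin in A431 and right of 0 in the interaction. Of the small heat shock proteins in A431 the outermost point is HSPB7, with very low counts, whose fitted value depends on the prior count and is no measure of size.

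As a description, the genes whose log2 CPM followed each member most closely over the 27 libraries, centred within the line, were named by a fixed rule. The libraries of a group share their treatment, so the 27 points are not independent and no p is given. HSPD1 had the closest companions, HSP90AB1 (Pearson's r 0.983), DHX9 (0.982) and RBL1 (0.98). HSPA1A and HSPA1B were closest to each other (0.942), which their shared reads can set. DNAJB1 followed GNA15 (0.962), MOB2 (0.956) and RALB (0.952). For the other members the closest genes were ZNF746 for HSF1 (0.943), SNRPB2 for HSPA8 (0.93), ASNSD1 for HSPH1 (0.943), KCTD9 for HSP90AA1 (0.921), FAM110A for HSPB1 (0.923) and MYO1C for BAG3 (0.92).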

How the data were processed

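RNA from A431 and MDA-MB-231 cells was sequenced as unstranded paired-end libraries. The deposited values were raw counts per gene, keyed by Entrez gene identifier, for all 27 libraries. The submitters' processing notes name Trim Galore 0.3.7, STAR 2.5.3a, edgeR and hg19. The counting tool and its annotation are not given in the sources used here. Of 24566 rows, 24422 carried a symbol and 1597 held no count in any library. Libraries of a group were stated to be biological replicates, so p-values measure the spread between those cultures only. In R 4.3.3, each line was fitted with edgeR 4.0.16 (filterByExpr, TMM, quasi-likelihood test, Benjamini-Hochberg adjustment over all genes tested), and the comparisons of lines used 1 joint fit of their untreated and CKI groups. A gene was called when its adjusted p was below 0.05 and its log2 fold change exceeded 1 in size. The fits were tested on simulated data. The precision rests on 3 libraries a group at 17757206 to 22809339 counts.

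The 10 genes and the wider list were chosen with earlier results of these data known. All 10 were described whatever their values, and of the wider list at most 2 genes of smallest adjusted p were named in each direction. Gene coordinates are from GENCODE (GRCh37) and promoters from RefSeq (GRCh38.p14). Alternatives were DESeq2 1.42.0, RLE factors, library size alone, other low-count filters, offsets for GC content and length, a replicate block, the block with those offsets, the compared groups alone, the vehicle in place of untreated A431, HSPA1A and HSPA1B summed, adjusted p alone, and leaving out each replicate.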

Additional observations from a re-analysis of the deposited data

Results flagged for a closer look

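For 5 values a test of the difference itself, an interaction term in edgeR's quasi-likelihood fit, passed both limits. The log2 change of HSPA1A with CKI in MDA-MB-231 was lower when 5-FU was present (-1.38 ± 0.149, SE, adjusted p = 5.7e-05). In A431 the change with CKI was higher in the presence of doxorubicin for HSP90AA1 (1.76 ± 0.0873, adjusted p = 2.1e-13), HSPD1 (1.43 ± 0.0798, adjusted p = 1.4e-12) and DNAJB1 (1.03 ± 0.0717, adjusted p = 4.7e-11). The change of HSPA1A with CKI was lower in A431 than in MDA-MB-231 (-1.25 ± 0.144, adjusted p = 1.2e-05). The sum of HSPA1A and HSPA1B gave -0.98 and -0.76 for the HSPA1A values, under the limit on fold change. Over the other alternatives the HSPA1A value for line by CKI reached -0.86 and the DNAJB1 value 0.89, also under that limit.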

How the results depend on the processing

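Of 2244 alternative values for 130 gene and comparison pairs, 2004 kept direction and side of the threshold, 121 lost the threshold, 56 gained it, 36 changed direction with the main or the alternative value past the threshold, and 27 changed sign with neither past it, and the cause was not tested. With the vehicle as control in A431, log2 fold changes turned to 0.34 (HSF1) and 0.0563 (HSPB1) with CKI, to -0.14 (HSPH1) and 0.57 (HSPB1) with doxorubicin, and to -0.49 for the HSPB1 interaction. With library size alone they turned to 0.23 (HSPA8) and 0.11 (HSPB1) with doxorubicin, and to 0.0298 (BAG3) and 0.0485 (HSPD1) for CKI plus doxorubicin against CKI. With offsets for GC content and length they turned for HSF1 to 0.23 (CKI plus 5-FU against CKI), 0.28 (CKI in A431), 0.0682 (vehicle), 0.15 (CKI plus doxorubicin against doxorubicin) and 0.31 (line by CKI), for HSPB1 to 0.13 (doxorubicin) and 0.37 (line by CKI), for the vehicle to 0.0629 (HSPA1B), -0.0392 (HSPH1), -0.0219 (HSP90AA1) and -0.019 (HSPD1), and for CKI plus doxorubicin against doxorubicin to 0.0421 (HSPA1A) and 0.16 (HSPA1B). With the replicate block and these offsets the same values turned, among them 0.0665 (HSF1), 0.0642 (HSPA1B), -0.0394 (HSPH1), -0.0223 (HSP90AA1) and -0.0188 (HSPD1) for the vehicle, 0.0426 (HSPA1A) for CKI plus doxorubicin against doxorubicin, and 0.36 (HSPB1) for line by CKI. Leaving out 1 library gave HSPB1 with 5-FU a range from -0.18 to 0.22, negative and past the threshold without untreated replicate 1. With the offsets this value was positive, at 0.27, and also past the threshold. Leaving out 1 library changed the sign of 9 further values that passed in neither fit.

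No pairing by replicate number was seen: in no comparison did the deviations of all same-numbered libraries correlate above 0.1. With 3 libraries a group, some of which stood apart, this cannot show that pairing was absent. The replicate block moved HSPH1 with doxorubicin to 0.13 (adjusted p = 0.061) and BAG3 between the lines to 0.42 (adjusted p = 0.037), and changed no other side of the threshold.

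By adjusted p alone the members passing were 3 (CKI) and 5 (5-FU) in MDA-MB-231, 8 for the combination there against 5-FU and 8 against CKI, 4 for that interaction, 9 (CKI), 8 (vehicle) and 8 (doxorubicin) in A431, 6 for the combination against doxorubicin and 9 against CKI, 9 for that interaction, 9 between the lines and 6 for line by CKI. With HSPA1A and HSPA1B summed, 0 of the members were called for CKI plus 5-FU against CKI, for the CKI by 5-FU interaction and for line by CKI. The last count was also 0 with the offsets, with or without the replicate block. The vehicle control gave 2 calls with CKI in A431, and library size alone 3 for CKI plus doxorubicin against CKI. Leaving out 1 library gave 0 to 1 calls for CKI plus 5-FU against 5-FU (0 without combination replicate 2), 1 to 2 for CKI plus doxorubicin against doxorubicin (2 without doxorubicin replicate 2) and 1 to 2 for line by CKI (2 without untreated MDA-MB-231 replicate 1). Of 90 group levels, 60 moved by more than 1 SD with library size alone and 28 with RLE factors.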

Other observations

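HSPA6, a strictly inducible HSP70 chosen here after its values were seen, was low throughout and highest in untreated A431, with 5.01 to 6.98 CPM (81 to 127 counts). It held 0.51 to 0.90 CPM with CKI, 1.09 to 1.66 with doxorubicin and 2.53 to 3.25 with both, a log2 fold change of -3.34 ± 0.231 with CKI (SE, adjusted p = 1e-11) and -2.24 ± 0.198 with doxorubicin (adjusted p = 5.9e-10), and an interaction of 4.48 ± 0.321 (adjusted p = 7.6e-11). The vehicle group was also low, at 0.927 to 1.32 CPM (-2.48, adjusted p = 7.5e-09). In MDA-MB-231 HSPA6 was highest with 5-FU, at 1.81 to 2.35 CPM against 0.157 to 0.737 CPM untreated (1.98, adjusted p = 0.00055).

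HSPB8 rose with each agent in both lines. In A431 it held 19.6 to 20.9 CPM untreated, 56.9 to 58.8 with CKI, 141 to 150 with doxorubicin and 182 to 192 with both, where the vehicle group held 19.6 to 20.7. In MDA-MB-231 it held 5.65 to 7 CPM untreated, 9.63 to 10.9 with CKI, 20.1 to 23.4 with 5-FU and 8.76 to 8.98 with both. HSPE1, read from the strand opposite HSPD1, held 285 to 301 CPM in untreated A431, 84.5 to 97.3 with CKI, 126 to 138 with doxorubicin and 92.4 to 102 with both, and in the vehicle group 229 to 259.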
